A study of Mus musculus with 16 samples.

Results

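Leukocyte adhesion molecules are receptors on the vessel wall and at endothelial junctions that let white blood cells slow down, stop and cross. The set described here was chosen by name from the expression table of mouse aortic valves, which writes its symbols in capitals: SELP, SELE, VCAM1, ICAM1, ICAM2, MADCAM1, PECAM1, F11R and JAM2. Of these 9 genes, 8 are read here among the table's 20992, under their mouse symbols Selp, Sele, Vcam1, Icam1, Icam2, Pecam1, F11r and Jam2, and Madcam1 was not analysed here. All 8 passed the filter on low values, at least 1 unit in at least 4 libraries. Units are the authors' normalised counts, brought by 1 common factor to a median library total of 1000000.

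The study measured RNA of aortic valves by RNA-seq in 4 groups of mice labelled with a C57BL/6J background. HC/HT mice (3 libraries analysed, 2 female and 1 male) combine the ApoE knockout with transgenes for human renin and human angiotensinogen. HC mice (4 libraries, 3 female and 1 male) have the ApoE knockout alone, a model of hypercholesterolaemia in which the gene for apolipoprotein E is lost. HT mice (4 libraries, 2 female and 2 male) overexpress the human renin and angiotensinogen transgenes, a model of hypertension driven by angiotensin, and CON mice (4 libraries, 1 female and 3 male) are the controls. The 7 HC/HT and HC libraries are called Apoe knockout here and the 8 HT and CON libraries Apoe intact. Sample numbers in the column names are lower for every knockout library than for every intact one, and their meaning is not given. An effect of sample order or handling therefore cannot be told apart from the knockout. Age, diet, the promoters of the transgenes, and whether a library holds the valve of 1 mouse or a pool are not given in the sources used here, so the p-values measure the spread between these libraries. Blood pressure, cholesterol and the transgenes themselves were not analysed here.

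Leukocytes leave the blood in steps. Selectins on activated endothelium catch rolling cells by their sugar-bearing ligands, immunoglobulin-type receptors such as VCAM-1 and ICAM-1 hold them by their integrins, and junction molecules such as PECAM-1 and the JAM proteins take part as the cells pass between endothelial cells. In arteries, selectins and VCAM-1 on the endothelium are known for recruiting monocytes to lipid-rich lesions of Apoe knockout mice. The aortic valve is a sheet of interstitial cells covered by endothelium, and bulk RNA of it cannot tell fewer cells of a type from less RNA per cell.

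All 14 endothelial markers were present, with a summed level of 641 to 1489 units per library, and the 10 markers of valve interstitial cells and fibroblasts summed to 5071 to 18196 units. Apoe stood at 2.15 to 12.3 units in the 7 knockout libraries and at 56.6 to 1014 units in the 8 intact libraries, and the labelled sex matched in 15 of 15. The deposited totals are nearly equal in all libraries, so they do not carry depth, and 4 abundant rows took 32.4% to 62.7% of them. A larger share of those rows lowers all other genes of a library. For this reason scaling by median-of-ratios factors, which ranged from 0.626 to 1.32, is given as a second view. HT replicates 2 and 3 and HC/HT replicate 2 had the lowest median correlation with the other libraries. Calls of members and partner genes that were lost without them are given without them as well.

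The stretch of 250 bases upstream of the annotated start is shown for both selectins and for Icam1, since the selectins were the members whose difference passed the test and Icam1 is the textbook cytokine-induced member beside them. Sequences are those of RefSeq on GRCm38.p6, plus strand, 5′ to 3′. The starts are RefSeq's, and for Icam1 this start lies a little upstream of that of the GENCODE gene interval. Capitals mark matches to GGANNTTCC, the core of NF-kappaB sites, and to TATAAA, the TATA box. Both motifs were chosen after the sequences had been read.
Sele, chr1:164047984-164048233: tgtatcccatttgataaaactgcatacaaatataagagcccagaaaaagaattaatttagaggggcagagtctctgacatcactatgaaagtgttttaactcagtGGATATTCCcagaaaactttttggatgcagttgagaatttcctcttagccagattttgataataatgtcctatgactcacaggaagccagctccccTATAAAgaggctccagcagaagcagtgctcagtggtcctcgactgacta
Selp, chr1:164115014-164115263: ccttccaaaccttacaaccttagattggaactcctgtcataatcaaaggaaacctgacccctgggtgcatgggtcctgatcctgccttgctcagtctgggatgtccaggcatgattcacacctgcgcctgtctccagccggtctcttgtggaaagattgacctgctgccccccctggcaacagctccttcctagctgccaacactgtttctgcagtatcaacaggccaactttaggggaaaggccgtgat
Icam1, chr9:21015690-21015939: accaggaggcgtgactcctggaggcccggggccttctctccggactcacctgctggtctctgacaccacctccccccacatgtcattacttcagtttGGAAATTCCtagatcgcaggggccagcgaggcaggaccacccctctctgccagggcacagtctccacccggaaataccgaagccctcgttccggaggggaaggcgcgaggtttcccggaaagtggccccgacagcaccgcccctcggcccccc

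The Sele stretch held GGATATTCC with its first base 145 bases before the start and TATAAA at 49 bases before it. In Icam1, GGAAATTCC lay at 153 bases, which matches the motif read on either strand, and there was no TATAAA. Selp and F11r held neither motif in these letters, and Madcam1 held GGAAAGTCC, whose minus strand matches GGANNTTCC, at 70 bases. Of 32851 promoter windows of 250 bases in the table, 3.59% held GGANNTTCC on either strand and 12.4% held TATAAA on either strand. Entries were at hand for 5 of the 9 genes. A match describes letters and not binding.

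On mm10, the mouse genome build of the submitters' processing notes, Sele (chr1:164048234-164057677) and Selp (chr1:164115264-164150026) lie close together on the plus strand, and F11r (chr1:171437535-171464603, plus) lies on the same chromosome. Icam2 (chr11:106377656-106388075) and Pecam1 (chr11:106654217-106750628) are both on the minus strand of chromosome 11. Vcam1 is at chr3:116109949-116129688 (minus), Icam1 at chr9:21015985-21028817 (plus) and Jam2 at chr16:84774123-84825928 (plus). These are gene intervals of the GENCODE annotation.

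Per kilobase of the longest coding transcript, over all 15 libraries, Vcam1 and Pecam1 had the highest levels, 128 ± 55.1 and 114 ± 32.3 units per kb (SD, n = 15). Jam2 followed at 40.8 ± 8.41 and Icam2 at 30.9 ± 10.0 units per kb. Selp stood at 15.6 ± 10.3, F11r at 15.3 ± 5.48 and Icam1 at 11.7 ± 3.35 units per kb, and Sele was the lowest at 6.76 ± 4.11. Vcam1 and Pecam1 differed by less than the larger SD of the pair, as did Jam2 and Icam2, and as did each pair among Selp, F11r and Icam1.

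The selectins were higher in valves of Apoe knockout mice. Selp, P-selectin, which endothelial cells and platelets store and bring to the surface on activation, was higher in every knockout library than in any intact one. Sele, E-selectin, which endothelial cells make after cytokine stimulation, was also higher, with overlap. These were the only 2 of the 8 members that passed the test between knockout and intact valves, in a comparison in which 220 of 15004 genes tested, 1.47%, passed (192 higher and 28 lower).

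**Figure D1:**
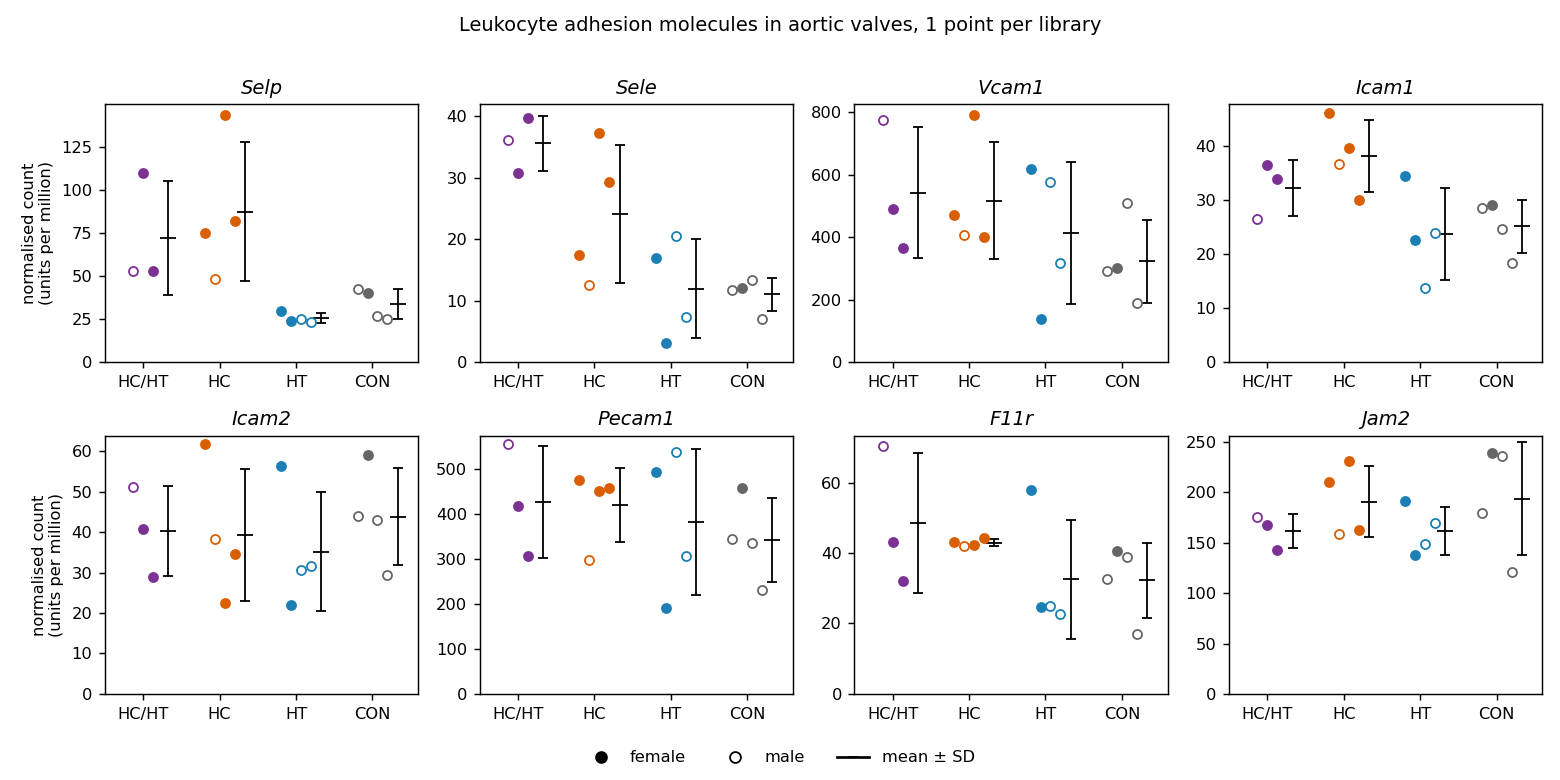
Level of each adhesion gene in every library, in units on linear axes from 0, by group, with filled points for females, open points for males and bars for the mean ± SD. All 7 Selp points of HC/HT and HC valves lie at 48.5 units or more and all 8 of HT and CON valves at 42.3 or less, while the groups overlap for Icam2, Pecam1 and Jam2.

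Selp read 52.7, 110 and 53.1 units in the 3 HC/HT libraries, 75.2, 48.5, 143 and 82.1 in the 4 HC libraries, 29.6, 23.9, 25.4 and 23.5 in the 4 HT libraries and 42.3, 40.3, 27.0 and 25.2 in the 4 CON libraries. On this deposited scale the HT values lie in a narrow band at the level of the lower CON pair, and the knockout values spread widely. With median-of-ratios factors the HT values were 27.5, 38.2, 38.4 and 24.4 units and the CON values 32.6, 30.5, 22.9 and 32.1 units. Over the knockout libraries the lowest, median and highest were 48.5, 75.2 and 143 units, against 23.5, 26.2 and 42.3 units in the intact libraries. The mean was 80.7 ± 35.1 units in knockout valves (SD, n = 7) and 29.6 ± 7.45 units in intact valves (SD, n = 8). Selp rose by a log2 difference of 1.17 (SE 0.24, adjusted p = 0.00854 by limma), or by 1.08 relative to the median of all genes, which was itself 0.09 higher in knockout valves. The knockout and intact libraries did not overlap, on the deposited scale or with median-of-ratios factors, a separation upward that 0.673% and 0.633% of the genes tested also showed.

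This value is also given by sex and without some libraries. In females Selp averaged 92.7 ± 34.8 units in knockout valves (SD, n = 5) and 31.2 ± 8.31 units in intact valves (n = 3), and in females alone the log2 difference was 1.36. In males it read 52.7 and 48.5 units in the 2 knockout libraries and 28.7 ± 7.72 units in the 5 intact libraries (SD), and in males alone the log2 difference was 0.86. Females alone hold 1 CON library, and males alone 1 HC and 1 HC/HT library. Whether the difference depends on sex was not tested. In both sexes, without HT replicate 2 the difference was 1.08 with a limma adjusted p of 0.0562, and without HT replicates 2 and 3 and HC/HT replicate 2 it was 1.01 with an adjusted p of 0.146.

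Sele read 36.1, 30.9 and 39.8 units in HC/HT valves, 17.4, 12.5, 37.2 and 29.3 in HC valves, 16.9, 3.23, 20.5 and 7.35 in HT valves and 11.8, 12.05, 13.3 and 7.05 in CON valves. The 3 HC/HT libraries lie close together at the top, while the HC libraries fall into a lower and a higher pair. In the knockout libraries the lowest, median and highest were 12.5, 30.9 and 39.8 units, against 3.23, 11.9 and 20.5 units in the intact libraries, and 5 of 7 knockout libraries exceeded every intact one. The mean was 29.0 ± 10.4 units in knockout valves (SD, n = 7) and 11.5 ± 5.60 units in intact valves (SD, n = 8). Sele rose by a log2 difference of 1.34 (SE 0.34, adjusted p = 0.0396 by limma), or by 1.24 relative to the median of all genes.

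The call for Sele is close to the threshold. With median-of-ratios factors the log2 difference was 1.23 with an adjusted p of 0.0969, and it passed in 10 of 26 alternatives, with differences between 0.86 and 1.59. Leaving out 1 library ended the call in 10 of 15 cases: any HC/HT replicate, HC replicate 3 or 4, HT replicate 2 or 4, or CON replicate 2, 3 or 4, with adjusted p of 0.0546 to 0.229. The largest was that without HT replicate 2, whose Sele of 3.23 units was the lowest of all, and without HT replicates 2 and 3 and HC/HT replicate 2 it was 0.140. In females alone the log2 difference was 1.57, and in males alone 0.86, and whether it depends on sex was not tested.

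Split into the single groups, neither selectin passed the test, and the HC, HT and HC/HT comparisons share the same 4 CON libraries. In HC/HT against CON, 0 of 8 members passed where 70 of 15004 genes, 0.467%, did. There the log2 difference of Sele was 1.59 (SE 0.48, adjusted p = 0.170) and that of Selp 0.82 (SE 0.35, adjusted p = 0.369). Both selectins lay above CON in every HC/HT library, as did 2.89% of the genes tested. In HC against CON, 0 of 8 members passed where 25 genes, 0.167%, did, and Selp had a log2 difference of 1.04 (SE 0.33, adjusted p = 0.477) and Sele of 0.93 (SE 0.46). Selp, Icam1 and F11r did not overlap between HC and CON, a separation upward found for 2.81% of the genes tested.

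In HC/HT against HT, the knockout comparison within mice that all carry the transgenes, 0 of 8 members passed where 56 genes, 0.373%, did. The log2 difference was 1.74 for Sele (SE 0.47, adjusted p = 0.120) and 1.29 for Selp (SE 0.34, adjusted p = 0.103), with neither selectin overlapping between the groups, as for 4.99% of the genes tested. Sele passed in this comparison when only the 2 groups were fitted (log2 difference 1.82, adjusted p = 0.00512), and without HT replicate 1 or 3 (adjusted p = 0.0273 and 0.0366). The split of all calls also moved with the scaling: 48 higher and 8 lower became 24 and 12 with median-of-ratios factors in HC/HT against HT, 22 and 48 became 59 and 50 in HC/HT against CON, and 192 and 28 became 166 and 52 in knockout against intact.

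**Figure D2:**
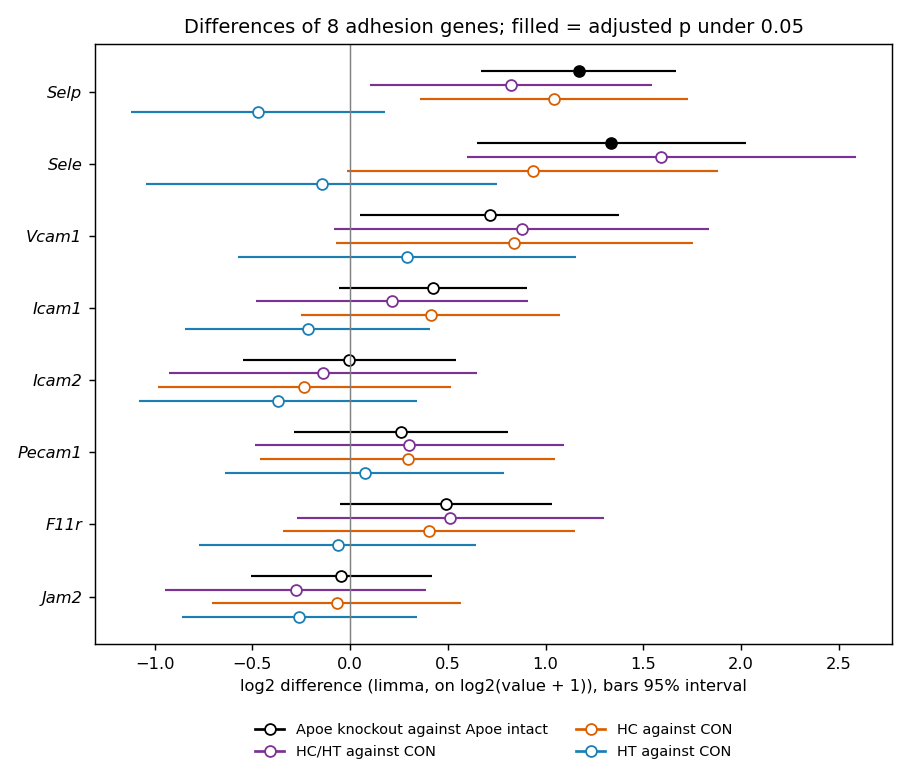
Limma log2 difference of each adhesion gene with its 95% interval, for Apoe knockout against intact valves (black), HC/HT against CON (purple), HC against CON (orange) and HT against CON (blue), on the log2(value + 1) scale. Only the black points of Selp, 1.17, and Sele, 1.34, are filled, which marks an adjusted p under 0.05.

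The immunoglobulin-type receptors for integrins did not pass the test in any comparison, and means were higher in knockout valves for Vcam1 and Icam1 and nearly equal for Icam2. Vcam1, the endothelial receptor for the integrin of Itga4 and Itgb1, read 774, 491 and 365 units in HC/HT valves, 472, 406, 792 and 400 in HC valves, 619, 139, 577 and 319 in HT valves and 292, 303, 508 and 190 in CON valves. HT spans nearly the whole range, so all groups overlap. The mean was 529 ± 179 units in knockout valves (SD, n = 7) and 368 ± 179 units in intact valves (SD, n = 8). The log2 difference of 0.71 (SE 0.32) had an adjusted p of 0.447. Against CON, Vcam1 differed by 0.88 in HC/HT valves (SE 0.46, adjusted p = 0.498) and by 0.84 in HC valves (SE 0.44), and against HT valves HC/HT differed by 0.59.

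Icam1, the receptor for the leukocyte integrins that share the Itgb2 chain, read 26.5, 36.5 and 33.8 units in HC/HT valves, 46.0, 36.7, 39.6 and 30.1 in HC valves, 34.5, 22.5, 13.7 and 23.9 in HT valves and 28.6, 29.0, 24.6 and 18.3 in CON valves. All 4 HC libraries lie above all 4 CON libraries, by as little as 30.1 against 29.0 units. Its mean was 35.6 ± 6.36 units in knockout valves (SD, n = 7) and 24.4 ± 6.50 units in intact valves (SD, n = 8), a log2 difference of 0.42 (SE 0.24, adjusted p = 0.617). It differed by 0.21 in HC/HT against CON, by 0.41 in HC against CON and by 0.43 in HC/HT against HT.

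Icam2, a receptor that resting endothelium carries, differed between knockout and intact valves by less than its spread. It averaged 39.7 ± 13.3 units in knockout valves (SD, n = 7) and 39.5 ± 13.3 units in intact valves (SD, n = 8), with a log2 difference between -0.55 and 0.54 (95% interval). The group means were 40.3 ± 11.1 units in HC/HT valves, 39.3 ± 16.4 in HC, 35.2 ± 14.8 in HT and 43.9 ± 12.1 in CON.

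None of the junction molecules passed. Pecam1, the homophilic receptor of endothelial junctions that platelets and leukocytes also carry, averaged 427 ± 125 units in HC/HT valves, 420 ± 82.9 in HC, 382 ± 162 in HT and 342 ± 92.5 in CON (SD). Between knockout and intact valves its log2 difference was 0.26 (SE 0.27, adjusted p = 0.870). F11r, which encodes JAM-A of epithelial and endothelial junctions, averaged 48.6 ± 19.8 units in HC/HT valves, 42.9 ± 0.934 in HC, 32.5 ± 16.9 in HT and 32.2 ± 10.6 in CON. The 4 HC values, 43.1, 42.1, 42.3 and 44.2 units, lie close together and above the CON values of 32.5, 40.5, 38.8 and 17.1 units. With median-of-ratios factors the HC values spread more, at 33.1, 36.6, 34.96 and 51.1 units, and the highest CON value was 32.8 units. The log2 difference of F11r was 0.49 between knockout and intact valves (SE 0.27, adjusted p = 0.599), 0.51 in HC/HT against CON and 0.40 in HC against CON.

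Jam2, which encodes JAM-B, an endothelial partner of the integrin of Itga4 and Itgb1 and of JAM-C, averaged 162 ± 17.0 units in HC/HT valves, 191 ± 35.5 in HC, 162 ± 23.9 in HT and 194 ± 55.8 in CON (SD). Knockout and intact valves averaged 179 ± 31.1 and 178 ± 43.3 units. The log2 difference was -0.04 with a 95% interval of -0.51 to 0.42.

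By group mean, the order was HC/HT, HC, HT and CON, from high to low, for Vcam1, Sele, Pecam1 and F11r on the deposited scale. Selp and Icam1 were highest in HC there, then in HC/HT, CON and HT, and Icam2 and Jam2 were highest in CON and lowest in HT. Of all neighbouring groups in these 8 orders, HC/HT and CON for Selp were the one pair whose libraries did not overlap. Of all genes tested, 2.89% lay above CON in every HC/HT library on that scale. With median-of-ratios factors the lowest HC/HT value of Icam1 was 24.0 units, beside a highest CON value of 23.4 units. For F11r these were 34.9 and 32.8 units. The share of all genes that separate on that scale was not computed, so these margins are not read as a result. The place of HT depends on the scaling. With median-of-ratios factors HT valves had the highest mean of Pecam1 (474 units in HT and 298 in CON), of Icam2 (41.7 units in HT and 38.1 in CON) and of Jam2 (199.7 units in HT and 168 in CON). On that scale HT also stood above HC for Vcam1, at 501 and 458 units, and above CON for Selp and Icam1, while the order of Sele and F11r stayed as given.

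The renin and angiotensinogen transgenes alone were not accompanied by a change of any member that passed the test. In HT against CON, 0 of 8 members and 0 of 15004 genes, 0%, passed by limma, with 1922 genes at an unadjusted p under 0.05, and all genes shared a downward median of -0.42 that became -0.01 with median-of-ratios factors. Selp had a log2 difference of -0.47, which was -0.05 relative to that median and -0.01 with median-of-ratios factors. Vcam1 had 0.29, or 0.71 relative to the median of all genes. Sele had -0.15 and Icam1 -0.22 on the deposited scale, and both were positive with median-of-ratios factors, at 0.28 and 0.24.

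Adding the transgenes to the knockout gave no call either. In HC/HT against HC, 0 members and 0 genes, 0%, passed by limma, with 661 genes at an unadjusted p under 0.05; the log2 difference was 0.66 for Sele and -0.22 for Selp. In hypertensive (HC/HT and HT) against normotensive (HC and CON) valves, 0 members passed where 2 genes, 0.0133%, did, against a median of all genes of -0.30. The log2 differences were 0.26 for Sele, 0.16 for Vcam1, -0.21 for Icam1 (0.11 with median-of-ratios factors) and -0.35 for Selp. The interaction of knockout and transgenes, the test of whether the knockout difference depends on the transgenes, passed for 0 members and 0 genes, 0%, by limma, with 207 genes at an unadjusted p under 0.05. Its estimate was 0.80 for Sele (SE 0.64), 0.25 for Selp (SE 0.47, and -0.02 with median-of-ratios factors) and -0.25 for Vcam1 (SE 0.61).

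Most of the 8 genes are made by endothelium, so each was also set against the mean log2 level of 14 endothelial markers (among them Cdh5, Tek, Kdr and Vwf) in the same library, a ratio that does not depend on the scaling of totals. The endothelial markers summed to 828 to 1226 units in knockout valves and 641 to 1489 units in intact valves. Between these, 7 of the 14 had a positive difference with 0 passing, beside 61.8% positive over all genes tested. Against CON, 12 of the 14 were negative in HC, 12 in HT and 10 in HC/HT valves, with 0 passing. Their median log2 differences were -0.17, -0.43 and -0.17, beside -0.02, -0.42 and -0.20 over all genes. A lower marker level raises the ratio. On the ratio scale Selp averaged 0.75 ± 0.84 in HC/HT valves, 0.89 ± 0.60 in HC, -0.52 ± 0.35 in HT and -0.52 ± 0.22 in CON (log2, SD). It was 1.27 above CON in HC/HT and 1.40 above CON in HC valves (exact permutation p = 0.0286 for each), and 0.00 apart in HT valves (p = 0.971).

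Sele relative to the endothelial markers was 1.88 above CON in HC/HT valves and 1.11 above CON in HC valves (exact permutation p = 0.0286 for each). Pecam1, itself an endothelial gene, was 0.57 above CON in HC/HT and 0.44 in HC valves (exact permutation p = 0.0286 for each) and 0.44 in HT valves (p = 0.429). Its CON ratios were the tightest, at 2.78 ± 0.06 (SD, n = 4). Icam1 was 0.61 above CON in HC/HT (exact permutation p = 0.114) and 0.71 in HC valves (p = 0.0286). F11r was 0.82 above CON in HC/HT and 0.60 in HC valves (exact permutation p = 0.0571 for each), and Vcam1 1.02 in HC/HT (p = 0.0857) and 0.83 in HC valves (p = 0.114).

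These tests are two-sided, and 0.0286 is the smallest p the groups allow. The smallest p adjusted over the 24 relations was 0.098, so none of them passes. This scale has no sex term, and females are unequally spread over the groups.

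**Figure D3:**
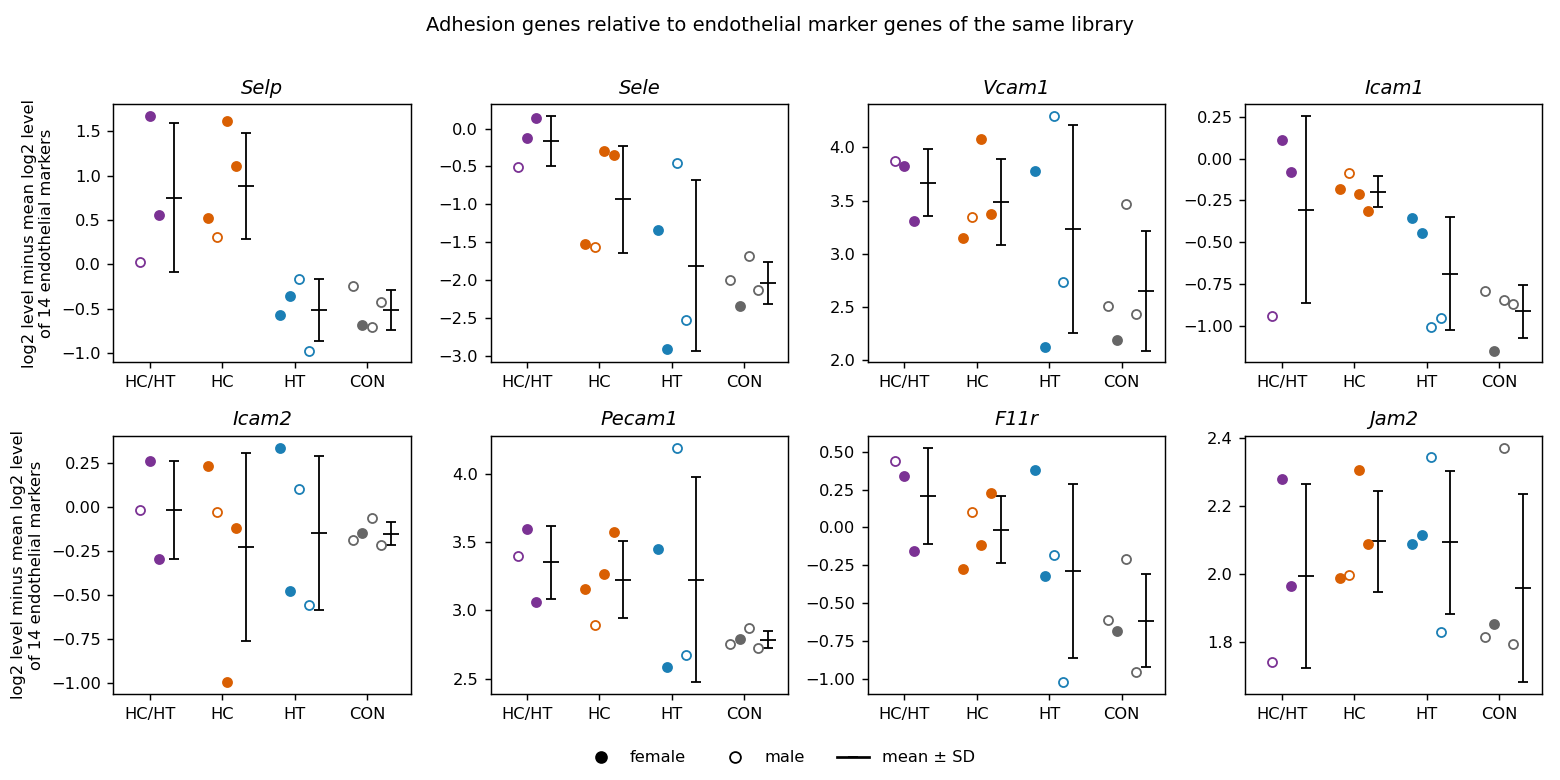
Each adhesion gene as its log2 level minus the mean log2 level of 14 endothelial markers of the same library, by group, with filled points for females, open points for males and bars for the mean ± SD. Selp lies above 0 in all 7 HC/HT and HC libraries and below 0 in all 8 HT and CON libraries, and no relation passes after adjustment.

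Markers of other cell types also moved with the knockout, in a comparison where 61.8% of all genes tested were positive. The 12 macrophage markers summed to 1847 to 3892 units in knockout valves and 179 to 1430 units in intact valves, with 11 of 12 positive and 5 passing, among them Trem2 (34.2 ± 9.62 units in knockout and 4.46 ± 2.97 units in intact valves) and Cd68 (109 ± 29.3 and 27.5 ± 13.8 units). Lyz2 alone averaged 1790 units in knockout and 456 units in intact valves. On the mean log2 level of these markers the genotypes overlapped, with HT replicate 1 at 5.60 and HC/HT replicate 1 at 5.53. The 8 smooth muscle markers summed to 83.7 to 641 units in knockout and 135 to 2766 units in intact valves, with 0 of 8 positive and 1 passing as lower. The 8 cardiomyocyte markers summed to 161 to 1257 units in knockout and 359 to 11410 units in intact valves, with 0 of 8 positive and none passing. The 11410 units belong to HT replicate 2, and the other intact libraries had at most 3297 units. Of 5 lymphatic endothelial markers tested, 4 were negative, with a median log2 difference of -0.71, and their sum was 77.4 to 188 units in knockout and 70.04 to 412 units in intact valves. The 412 units belong to CON replicate 4, and the other intact libraries had at most 222 units. Lyve1, the hyaluronan receptor of lymphatic endothelium that some macrophages share, fell by 2.06 (adjusted p = 0.0137 by limma), with 9.11 ± 9.68 units in knockout and 25.3 ± 18.2 units in intact valves (SD). The part of these cell types in the selectin differences was not tested.

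Platelets store P-selectin as well. The 8 platelet and megakaryocyte markers summed to 11.8 to 105 units in knockout valves and 8.33 to 1818 units in intact valves. The library at 1818 units was CON replicate 4, which had 25.2 units of Selp, the lowest of its group on the deposited scale. With median-of-ratios factors Selp in the 4 CON libraries read 32.6, 30.5, 22.9 and 32.1 units, the last in replicate 4, and lay at 42.1 units or more in the 7 knockout libraries. The neutrophil markers summed to 18.8 to 75.8 units in knockout and 4.02 to 69.5 units in intact valves, with 5 of 5 tested positive, none passing and a median log2 difference of 1.27. The T, B and NK cell markers summed to 6.86 to 43.9 units in knockout and 1.76 to 128 units in intact valves, with 4 of 4 tested positive, none passing and a median of 0.92. CON replicate 4 was also the library with 69.5 neutrophil and 128 T, B and NK cell units. The other intact libraries had at most 17.2 and 15.5 units. The part of platelets and of these leukocytes in the selectin differences was not tested either.

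**Figure D4:**
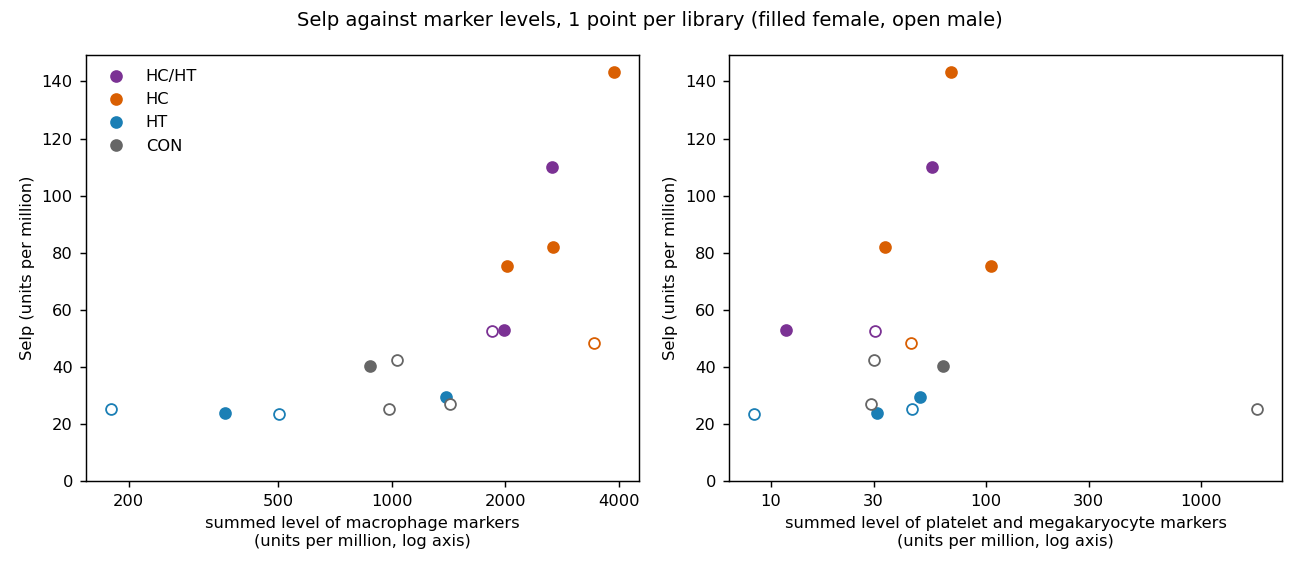
Selp level in units against the summed level of 12 macrophage markers (left) and of 8 platelet and megakaryocyte markers (right), log horizontal axes, 1 point per library. The 7 HC/HT and HC libraries lie at 1847 macrophage units or more and the 8 HT and CON libraries at 1430 or less. This sum is weighted to abundant markers such as Lyz2, and the mean log2 level of the same markers overlaps between knockout and intact libraries. The library with 1818 platelet units has 25.2 units of Selp.

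Across the 15 libraries, with median-of-ratios scaling, Selp correlated with the mean log2 level of the macrophage markers at a Pearson r of 0.64 (permutation p = 0.00997) and a Spearman rho of 0.69 (permutation p = 0.00574). Icam1 had an r of 0.65 (permutation p = 0.00842) and a rho of 0.58 (permutation p = 0.0279). None of the 16 relations, 8 genes by 2 marker lists, passed after adjustment, the smallest adjusted p being 0.0798. Without the 2 libraries farthest from the median of the markers, r was 0.72 for Selp, 0.71 for Vcam1, 0.70 for Sele and 0.56 for Icam1. The smallest adjusted permutation p there was 0.0541. With those 2 libraries kept, r was 0.15 for Vcam1 and 0.38 for Sele.

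Within each genotype the relation of Selp to the macrophage markers did not pass, and its sign differed. In the 7 knockout libraries r was 0.50 (exact permutation p = 0.238) and in the 8 intact libraries -0.52 (exact permutation p = 0.185). For Icam1 r was 0.39 in knockout (exact permutation p = 0.435) and 0.28 in intact libraries (exact permutation p = 0.490). For deviations from the group means r was 0.05 for Selp and 0.58 for Icam1. Sele had an r of 0.38 with the macrophage markers over all libraries, -0.15 in knockout and -0.38 in intact libraries. Its rho was 0.57 over all libraries (permutation p = 0.0299), -0.25 in knockout and 0.24 in intact libraries. Without the 2 libraries farthest from the median of the markers, its r was -0.18 in knockout and 0.69 in intact libraries. With endothelial markers the r over all libraries was 0.25 for Icam2 and 0.15 for Pecam1.

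Partner genes of the adhesion molecules were read in 5 lists. Over all genes tested, 61.8% were positive in knockout against intact valves and 1.47% passed, and the counts below stand beside these shares. Of the leukocyte integrins and their partners, 2 of 12 tested rose in knockout valves, 0 fell and 11 were positive, with a median log2 difference of 0.53 beside 0.09 over all genes. Itgb2, the beta chain of the integrins that bind ICAM-1, averaged 69.4 ± 23.7 units in knockout and 23.2 ± 16.9 units in intact valves (log2 difference 1.70, SE 0.31, adjusted p = 0.00402). Itgam, the alpha chain that pairs with it on myeloid cells, averaged 102 ± 55.3 and 37.8 ± 16.0 units (log2 difference 1.28, SE 0.29, adjusted p = 0.0209). With median-of-ratios factors the adjusted p was 0.0502 for Itgb2 and 0.0530 for Itgam, and 9 of 12 were positive. Itgb2 also rose in HC/HT against HT, by 2.05 (SE 0.44, adjusted p = 0.0350), a call lost in 11 of 25 alternatives, among them the omission of any HC/HT replicate, of HT replicate 2, 3 or 4 or of CON replicate 3 (adjusted p of 0.0525 to 0.309). It was also lost without HT replicates 2 and 3 and HC/HT replicate 2, where the difference was 1.55 (SE 0.57). The knockout call of Itgam was lost without HC/HT replicate 1 or 2, HC replicate 2, HT replicate 2 or CON replicate 2 (adjusted p of 0.0581 to 0.154), and without HT replicates 2 and 3 and HC/HT replicate 2 the adjusted p was 0.417 for Itgam and 0.146 for Itgb2. Macrophages make both genes, and the 12 macrophage markers summed to 1847 to 3892 units in knockout and 179 to 1430 units in intact valves. Of these markers 11 were positive, 1 was negative and 5 passed. The part of macrophages in the differences of Itgb2 and Itgam was not tested.

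Genes for selectin ligands and for the enzymes that decorate them had 0 of 11 passing in either direction and 8 positive, with a median log2 difference of 0.27 (7 positive with median-of-ratios factors). Selplg, which encodes PSGL-1, the main leukocyte ligand of P-selectin, averaged 29.1 ± 7.74 units in HC/HT, 27.7 ± 11.7 in HC, 12.6 ± 8.27 in HT and 16.6 ± 4.11 in CON valves. Its log2 difference between HC and CON was 0.58 (SE 0.42). Podxl, a sialomucin of endothelium, averaged 450 ± 296 units in HC/HT and 170 ± 58.5 units in CON valves, a log2 difference of 1.32 (SE 0.56, adjusted p = 0.396).

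Of the other junction and transmigration molecules, 1 of 16 rose, 0 fell and 7 were positive, with a median of -0.05. Sirpa, the myeloid receptor of CD47, averaged 124 ± 17.1 units in knockout and 51.5 ± 23.6 units in intact valves (log2 difference 1.29, SE 0.27, adjusted p = 0.00932). The call for Sirpa, a gene that macrophages express, was lost without HC/HT replicate 1, HC replicate 2 or HT replicate 2 (adjusted p of 0.0641 to 0.0826), and the adjusted p was 0.244 without HT replicates 2 and 3 and HC/HT replicate 2. Jam3, which encodes the JAM-C partner of JAM-B, averaged 7.40 ± 3.16 units in HT and 18.5 ± 9.52 units in CON valves, a log2 difference of -1.26 (SE 0.39, adjusted p = 0.351). Tjp1, the tight junction scaffold ZO-1, averaged 113 ± 25.2 units in HC/HT, 134 ± 33.6 in HT and 240 ± 60.8 in CON valves, with log2 differences of -1.07 for HC/HT (adjusted p = 0.169) and -0.84 for HT (adjusted p = 0.351).

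Inflammatory inducers and the NF-kappaB pathway drive transcription of several of these receptors in activated endothelium. Their list also holds inhibitors of the pathway: Nfkbia, Nfkbib, Nfkbie and Tnfaip3. Of its genes, 2 of 23 rose, 0 fell and 23 were positive (21 with median-of-ratios factors), with a median log2 difference of 0.31. Tnfrsf1b, a receptor of tumour necrosis factor, averaged 64.0 ± 13.3 units in knockout and 22.3 ± 9.85 units in intact valves (log2 difference 1.58, SE 0.28, adjusted p = 0.00157). Its call held in all 26 alternatives tried, and it also rose in HC/HT against HT, by 1.78 (adjusted p = 0.0338), a call lost without HC/HT replicate 1 or 2 or HT replicate 2 or 3 (adjusted p of 0.0996 to 0.288). That call was also lost without HT replicates 2 and 3 and HC/HT replicate 2, where the difference was 1.15 (SE 0.42). Tnfaip3, the NF-kappaB-induced inhibitor A20, averaged 32.1 ± 10.4 and 15.1 ± 4.96 units (log2 difference 1.13, SE 0.28, adjusted p = 0.0347), a call kept in 12 of 26 alternatives and lost without any HC/HT replicate, HC replicate 2, 3 or 4, HT replicate 2 or CON replicate 3 (adjusted p of 0.0503 to 0.214). Without HT replicates 2 and 3 and HC/HT replicate 2 the difference was 0.96 with a limma adjusted p of 0.271. Tnf itself was low, at 3.58 ± 1.43 units in HC and 0.882 ± 0.384 units in CON valves (log2 difference 1.19, SE 0.42, adjusted p = 0.639).

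Of the shedding enzymes and membrane-actin linkers, 1 of 12 rose, 0 fell and 8 were positive (6 with median-of-ratios factors), with a median of 0.18. Adam8, a leukocyte metalloprotease that can cleave adhesion molecules, averaged 20.9 ± 6.92 units in knockout and 4.79 ± 2.68 units in intact valves (log2 difference 2.16, SE 0.34, adjusted p = 0.000387). It was also the one gene of the 5 partner lists to pass in HC/HT against CON (log2 difference 2.28, adjusted p = 0.0328) and in HC against CON (2.53, adjusted p = 0.00630), both lost without CON replicate 2 (adjusted p = 0.196 and 0.115). The call in HC/HT against CON was also lost without HC/HT replicate 1 or 2 or CON replicate 3 (adjusted p of 0.0544 to 0.140). Without HT replicates 2 and 3 and HC/HT replicate 2 its limma adjusted p was 0.0815. No gene of the 5 lists passed in HT against CON. There the medians were -0.39 for the integrins, -0.35 for the selectin ligands, -0.35 for the junction molecules, -0.32 for the NF-kappaB list and -0.35 for the shedding list, beside -0.42 over all genes.

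**Figure D5:**
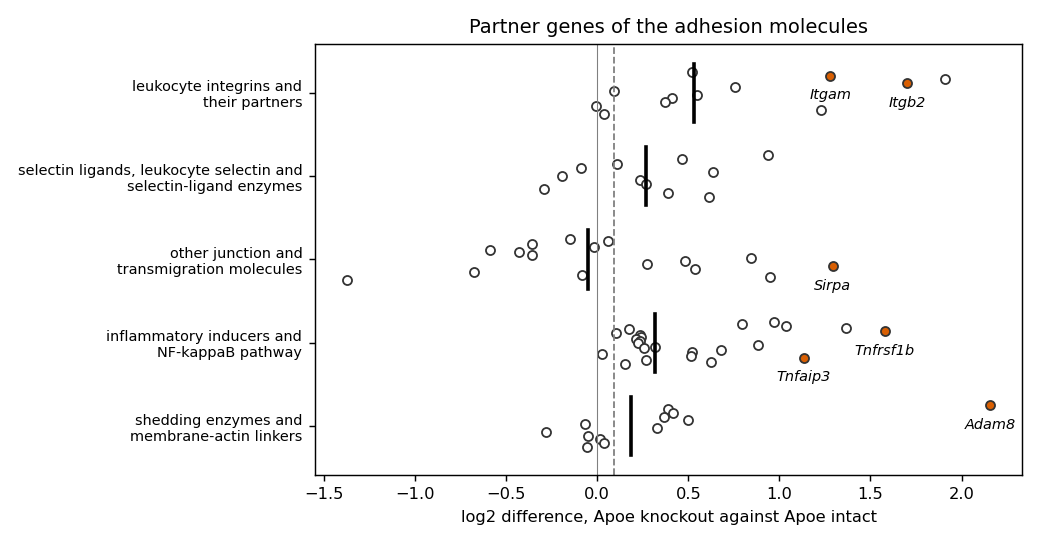
Log2 difference between Apoe knockout and intact valves for each tested gene of the 5 partner lists, with filled points for an adjusted p under 0.05, thick bars for the median of each list and a dashed line for the median of all genes, 0.09. Named are the genes that passed: Itgam, Itgb2, Sirpa, Tnfrsf1b, Tnfaip3 and Adam8, at 1.13 to 2.16.

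The genes whose levels ran most like each member were sought among 9954 named genes over the 15 libraries, by Pearson r with median-of-ratios scaling, as a description. Selp was most like Csf2rb (r = 0.87), Picalm (0.86) and Cxcl16 (0.86), and Csf2rb, the shared chain of the GM-CSF, IL-3 and IL-5 receptors, was also second for Icam1 (0.85, after Nfasc at 0.86). Sele was most like Tnfaip3 and Entpd1, each at 0.90, and Ywhag (0.87). Pecam1 was most like S1pr1, an endothelial sphingosine phosphate receptor, at 0.96, followed by Msn at 0.93 and Tnfrsf22 at 0.92. Msn, which links membrane receptors to actin, also came first for Vcam1 at 0.88, before Slc12a8 (0.88) and Nrm (0.87). The values were lower for Icam2, whose nearest were Pdp1 and Ccdc6 at 0.78. F11r was nearest to Fst (0.88) and Jam2 to Kif1b (0.88).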

How the data were processed

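Aortic valve RNA was amplified from 1 ng of total RNA with the Nugen Ovation kit before library preparation, per the labels' protocols. Per the submitters' processing notes, the tools included Bowtie 1.0.1, SAMtools 0.1.9, FastQC 0.11.2 and edgeR, on mm10. The sources used here do not state how reads were counted and normalised. The authors' values have the character of a score: normalised counts in whole numbers, with deposited totals of 10207928 to 10210305 in every library. Equal totals hide the depth, so no counting interval is given. Low values lay within 0.5 of multiples of a step of 1.59 to 2.42 deposited units for 86.9% to 99.8% of them, where unrelated values would give 41.3% to 63.1%, but gave no whole reads for a count test. Of 16 planned libraries 15 were used, and 1 column without a name was not. Symbols matched a current mouse gene in 17628 of 20992 rows and an older name in 1079.

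Values were multiplied by 0.0979537. The 15004 genes that reached 1 unit in 4 libraries or more entered a limma model (limma 3.58.1, R 4.3.3, eBayes with trend and robust) on log2(value + 1), with group and sex as terms and all 15 libraries in 1 fit. Pooled comparisons contrast the mean of 2 groups with that of the other 2. Tests are two-sided, with Benjamini-Hochberg adjustment over all genes tested and a threshold of 0.05, and the script was tested on simulated data. The pseudocount of 1 makes differences of low genes smaller. Marker ratios were compared by exact permutation, and correlations by 100000 permutations or exact enumeration. Levels per kb use the longest basic coding transcript of GENCODE on mm10. Of 181 list genes, 6 had no row used here, and Cdh5, Esam, Cldn5 and Emcn stand in a partner list and among the endothelial markers. List genes are named when they passed, and otherwise may be named as 1 of the 2 with the smallest p in a comparison with CON. Genes most like a member are the 3 of highest r with a mean of at least 5 units. The members, lists, rules and tests were chosen with earlier results of these data known.

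Each result was recomputed with median-of-ratios factors, with quantile normalisation, with a pseudocount of 0.25 or 4, without the filter, with a filter at 5 units, without the sex term, with a replicate block, with only the groups compared and without each library. For the marker ratios Cdh5 alone was tried as well. Added after seeing the data were females alone, males alone, omission of the 3 libraries with low correlation, and correlations within genotypes.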

Additional observations from a re-analysis of the deposited data

Results flagged for a closer look

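A library far from the rest of its group was found in 2 of the 24 groups of 4 libraries examined (8 genes in 3 groups), where chance gives about 1 in 20. Pecam1 in HC valves was low in replicate 2, the only male of that group, at 297 units, while the other 3 HC libraries read 475, 451 and 458 units. F11r in HT valves was high in replicate 1, at 57.8 units, while the other 3 HT libraries read 24.6, 24.98 and 22.7 units. Both rest on the deposited scale. With median-of-ratios factors Pecam1 read 365, 258, 373 and 530 units in HC replicates 1 to 4, and F11r read 53.7, 39.3, 37.8 and 23.6 units in HT replicates 1 to 4, so that no library stood so far from the other 3.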

How the results depend on the processing

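In knockout against intact valves, the call for Selp held in 23 of 26 alternatives and that for Sele in 10 of 26, both positive in all. The 2 members passing became 1 with median-of-ratios factors, quantile normalisation, a pseudocount of 0.25 or no filter, 0 in males alone and without HT replicates 2 and 3 and HC/HT replicate 2, and 0 to 2 without single libraries. The cause was not tested. The 220 genes became 116 without a filter, 344 without the sex term, 346 in males alone, 45 without those 3 libraries, and 71 (without HT replicate 2) to 419 (without HT replicate 1) when single libraries were left out.

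HC against CON gave 41 genes in place of 25 without the sex term, 48 with only the groups compared, and 8 to 51 without single libraries. HT against CON gave 208 in place of 0 with only the groups compared, and 0 to 2 without single libraries. HC/HT against CON gave 109 in place of 70 with median-of-ratios factors, 106 with quantile normalisation, 19 without a filter, 26 with a filter at 5 units, 151 with only the groups compared, 23 without the 3 libraries, and 7 to 143 without single ones. HC/HT against HC gave 0 to 3 in place of 0 without single libraries. HC/HT against HT gave 36 in place of 56 with median-of-ratios factors and with a pseudocount of 0.25, 8 without a filter, 221 with only the groups compared, 6 without the 3 libraries, and 7 to 260 without single ones; its members passing became 1 with only the groups compared and were 0 to 1 without single libraries. Hypertensive against normotensive gave 1 in place of 2 with median-of-ratios factors or quantile normalisation, 0 without a filter, without the sex term or without the 3 libraries, and 0 to 519 without single ones. With equal totals 5 correlations passed in place of 0.

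No clear pairing by replicate number was seen in the correlation of deviations from the group means. Over 21 same-number pairs it ran from -0.114 to 0.267, beside -0.273 to 0.379 for the other pairs. Of the 21, 10 exceeded 0.1, and 4 of 15 libraries were nearest to their own number. Such a check cannot settle whether the numbers mark pairs. With the numbers as a replicate block, the genes passing were 339 in knockout against intact, 42 in HC against CON, 1 in HT against CON, 222 in HC/HT against CON, 1 in HC/HT against HC, 138 in HC/HT against HT and 768 in hypertensive against normotensive, and Sele was the 1 member to pass in HC/HT against CON and against HT.

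Signs turned as follows. In HT against CON, Icam1 became 0.24 with median-of-ratios factors and 0.25 with quantile normalisation (-0.35 to 0.14 when libraries were left out, the highest without those 3), Sele 0.28 and 0.29 (-0.59 to 0.29), and Vcam1 ran from -0.0021 to 0.67. Hypertensive against normotensive turned Icam1 to 0.11 with median-of-ratios factors and 0.12 with quantile normalisation. With libraries left out, F11r in HC/HT against CON ran from -0.048 (without HC/HT replicate 1) to 0.77, Selp in HC/HT against HC from -0.51 to 0.050 (without HC/HT replicate 3), the interaction of Vcam1 from -0.61 to 0.022 (without HT replicate 1) and that of Selp from -0.064 (without the 3 libraries) to 0.54, with -0.018 under median-of-ratios factors. Between knockout and intact, Icam2 became 0.018 without the sex term and 0.35 in males alone (-0.21 to 0.19 with libraries left out), and Jam2 0.0087 and 0.013 (-0.15 to 0.038). Selp relative to Cdh5 alone in HT against CON was -0.25, and relative to all endothelial markers it ran from -0.12 to 0.15 with libraries left out. Sele with macrophage markers had r = -0.20 for deviations from the group means, -0.15 in knockout and -0.38 in intact libraries, Selp -0.52 in intact libraries, and Icam2 and Pecam1 with endothelial markers -0.096 and -0.050 there. The intact r of Sele was 0.69 without the 2 libraries farthest from the median of the markers, and its intact rho was 0.24. Of the 50 other member results, 42 turned sign in at least 1 of 961 alternative values, and 2 of those values changed call. Depth is unknown and limits every low value.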
